A study of Mus with 12 samples.

Results

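Loss of the retinoic acid receptor RARα was examined in activated mouse CD8 T cells that received retinoic acid (RA). The comparison sets 2 libraries of RARα-KO cells with RA (RARα-KO+RA) against 2 libraries of wild type cells with RA (WT+RA). These 4 libraries, of 12 in the series, were chosen by their genotype and RA labels. The comparison and all gene lists were chosen with earlier results of these data known. Per the labels, all cells were naive CD8 T cells taken from the spleen of C57BL/6 mice. Culture lasted 20 h on bound anti-CD3 (1 µg/ml), and the medium held anti-CD28 (2 µg/ml), IL-2 (100 U/ml) and 10% charcoal-stripped serum, which is low in retinoids. The RA suffix of the sample titles was read as all-trans RA added at 15 nM, because all libraries carry 1 common treatment label. RARα-KO cells came from mice with a floxed Rara gene (Rara L/L) and a Cre driven by the distal Lck promoter, which acts in T cells. C57BL/6 and dLck-Cre mice served as WT controls in the study. Mice of 6 to 10 weeks were used in most experiments, and no age is given for these cultures in particular. RARα-KO and WT cultures without RA, also 2 libraries each, serve as the second setting. BATF-KO cultures with and without RA, 2 libraries each, complete the series. They enter the statistical fit, and their levels are set beside some results. The sources used here do not say whether the replicates of a group came from separate mice or cultures, so p-values measure only the spread between these samples.

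RA is made from vitamin A and enters the nucleus, where it binds RARα, RARβ or RARγ. Each of these pairs with a retinoid X receptor on RA response elements (RAREs) in DNA. Without RA the pair recruits corepressors with histone deacetylases, and with RA it recruits coactivators with histone acetyltransferases. In T cells RA is best known for inducing gut-homing receptors such as CCR9 and integrin α4β7.

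Rara (ENSMUSG00000037992, chromosome 11, 98927800 to 98974942, GRCm38) was at 12.1 and 11.7 FPKM in WT+RA and at 17.2 and 13.7 FPKM in RARα-KO+RA. FPKM counts sequenced fragments relative to transcript length and to the size of the library. The RARα-KO+RA libraries lay above the WT+RA libraries, but the difference was not called (log2 fold change 0.34 ± 0.15 SE, adjusted p = 0.381). Transcripts without the deleted exon still count towards Rara, whose level therefore cannot check the deletion. Cre was at 681 and 86.7 FPKM in RARα-KO+RA and at 0.07 and 0.03 FPKM in WT+RA. Of these 4 libraries Cre reads above 0.07 FPKM were thus in RARα-KO+RA alone, at levels that differed widely between the replicates. They show Cre and not the deletion, so the loss of RARα itself was not checked. Effects of Cre and of loss of RARα cannot be told apart. Of the other receptors, Rarg, which encodes RARγ, was at 17.1 and 14.6 FPKM in WT+RA and at 22.5 and 11.4 FPKM in RARα-KO+RA. Rarb, which encodes RARβ, did not exceed 0.12 FPKM in these libraries. None of the 19 measured retinoid receptors, corepressors and coactivators was called.

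The 4 libraries held 12127 to 12486 genes at 1 FPKM or more and had a relative depth of 1.08 to 1.16, where WT replicate 1 is 1. Mitochondrial genes held 3.96 to 5.41% of all FPKM. The first principal component of all 12 libraries (42.7% of the variance) split RARα-KO libraries, with scores of 35.8 to 41.6, from the rest, with scores of -24.0 to -15.5. Xist, expressed from the inactive X chromosome of females, did not exceed 0.09 FPKM in any library and the Y-linked Ddx3y was at 20.5 to 42.3 FPKM, so all libraries carried the male pattern.

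Among 13396 genes tested, 504 (3.76%) differed between RARα-KO+RA and WT+RA at an adjusted p under 0.05, which is what called means below. Of these, 434 (3.24%) were higher in RARα-KO+RA and 70 (0.523%) were lower. The change was at least 1.5 on the log2 scale for 300 genes (2.24%). These shares over all genes are the background for the counts of called list members given below. The median over all genes tested was -0.01, and 49.0% of genes were higher in RARα-KO+RA. Receptor segments of B and T cells, 322 of the genes tested, supplied 119 of the genes called higher and 9 of those called lower. The count of called genes was 297 without WT+RA replicate 1, 280 without WT+RA replicate 2 and 246 without RARα-KO+RA replicate 2. It was 317 when receptor segments and B cell markers were left out of the test.

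The same receptor loss was measured without RA in other libraries of the same design. There 441 genes (3.29%) were called, 372 (2.78%) higher and 69 (0.515%) lower in RARα-KO. In all, 374 genes were called in the same direction in both settings, which is 74.2% of those called with RA and 84.8% of those called without it. The settings are not independent, since both comparisons use a shared estimate of the spread. Deviations of same-numbered libraries also correlated between the settings, at 0.43 for WT and 0.58 for RARα-KO. The overlap is therefore not read as replication. No gene was called in opposite directions. A further 130 genes were called only with RA, 112 higher and 18 lower. The difference of the effects, with RA minus without RA, was called for no gene by limma (184 genes at an unadjusted p under 0.05, 1.37% of those tested). The split into settings is therefore a split of calls, and no gene showed an effect that passed the test of the difference.

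**Figure D1:**
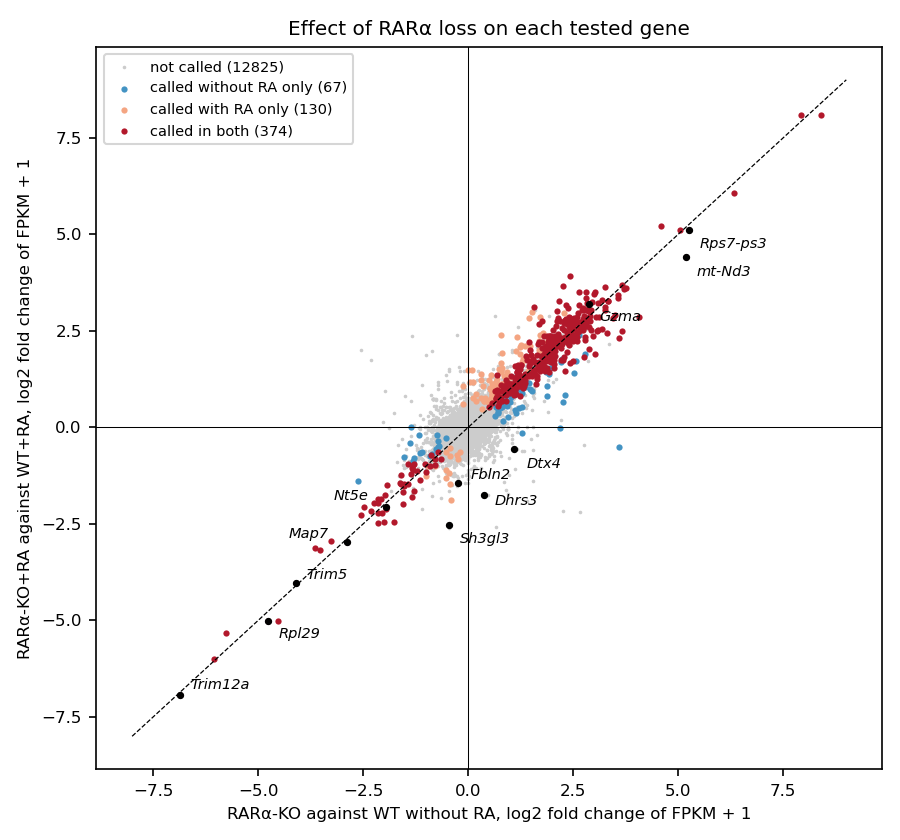
Log2 fold change of FPKM + 1 between RARα-KO and WT for every gene tested, without RA on the x axis and with RA on the y axis, coloured by where the gene was called; the dashed line marks equal effects. Most called genes lie near the line, from Trim12a at -6.86 and -6.94 to Gm6969 at 8.41 and 8.10, while Sh3gl3 (-0.45 and -2.52), Dhrs3 (0.39 and -1.74) and Fbln2 (-0.24 and -1.45) lie below it.

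Genes that responded to RA in WT cells are described first. RA raised 9 genes in WT (0.0672% of those tested) and lowered none at an adjusted p under 0.05, and it raised none in RARα-KO, where Gm6345 alone was called, lower (0.00746%). At an unadjusted p under 0.05 by limma, the RA groups differed in 659 genes (4.92%) in WT and 190 (1.42%) in RARα-KO. With genotype and replicate number as a block, 70 genes were called in WT, 48 higher and 22 lower, and 11 in RARα-KO, 10 higher and 1 lower. The 10 included Dhrs3, Dtx4, Fbln2, Lztfl1, Gfi1 and P2rx7. The counts of 0 thus depend on the block, and no source says what the replicate numbers mark. Cre followed them within RARα-KO, at 824 and 681 FPKM without and with RA in replicate 1, and at 79.3 and 86.7 in replicate 2. Erythroid marker sums followed them within WT (214 and 185 against 20.4 and 19.3 FPKM, in the same order). The fit without the block takes no account of this. The RA effect in WT and the RARα effect with RA share the 2 WT+RA libraries, so the values of both are given side by side and their overlap is not read as a result. These genes were named after the outcome of that test was seen. Counts of genes called for RA moved widely with the settings, as given in the closing section.

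Dhrs3 (ENSMUSG00000066026, chromosome 4, 144892534 to 144928209) encodes a retinaldehyde reductase that limits the making of RA and is a known RA target. Its levels were 0.31 and 0.24 FPKM in WT, 28.9 and 23.1 in WT+RA, 1.22 and 0.25 in RARα-KO and 9.41 and 5.20 in RARα-KO+RA. Both RARα-KO+RA libraries were above both RARα-KO libraries (2.27, adjusted p = 0.146, or 0.0021 with the block) and below both WT+RA libraries. With RA it was 3.56-fold lower in RARα-KO by mean FPKM (log2 fold change -1.74 ± 0.30, adjusted p = 0.00967), and without RA the change was 0.39 (adjusted p = 0.863). The call was lost without WT+RA replicate 1 (adjusted p = 0.0922), without RARα-KO+RA replicate 2 (adjusted p = 0.078) and at a pseudocount of 0.1 (adjusted p = 0.115).

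Sh3gl3 (ENSMUSG00000030638, chromosome 7, 82173808 to 82307420) encodes endophilin A3, a protein that binds and curves membranes. Its levels were 0.70 and 0.57 FPKM in WT, 7.75 and 5.88 in WT+RA, 0.29 and 0.11 in RARα-KO and 0.35 and 0.36 in RARα-KO+RA. The WT+RA libraries stood apart from the other 3 groups, and both RARα-KO+RA libraries lay within the range of the cultures without RA. Sh3gl3 lies in a stretch of chromosome 7 where 12.8% of the genes tested were called (20 of 156), against 2.88% of all positioned genes. That stretch was chosen after its values were seen. With RA Sh3gl3 was 19.2-fold lower in RARα-KO (-2.52 ± 0.19, adjusted p = 9.9e-05), against -0.45 without RA (adjusted p = 0.443). The difference of the effects, -2.07 ± 0.26, had an unadjusted p of 2.1e-05 and an adjusted p of 0.14. The call with RA held when any of the 8 WT and RARα-KO libraries was left out (highest adjusted p = 0.0135 over the 21 alternatives run).

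Fbln2 (ENSMUSG00000064080, chromosome 6, 91212460 to 91272540), encoding the matrix protein fibulin-2, was at 7.68 and 7.66 FPKM in WT+RA and at 1.73 and 2.68 in RARα-KO+RA. Without RA it lay at 0.59 and 0.61 in WT and at 0.26 and 0.46 in RARα-KO. The values with RA were higher than those without it in RARα-KO as well, by 1.22 (adjusted p = 0.0354 with the block). Fbln2 fell by 1.45 ± 0.18 on the log2 scale with loss of RARα in RA (adjusted p = 0.00198), and the value without RA was -0.24 (adjusted p = 0.855). Lcn10 (ENSMUSG00000047356, chromosome 2, 25682726 to 25686081), a lipocalin, was at 3.00 and 3.50 FPKM in WT+RA and at 0.45 and 0.61 in RARα-KO+RA (-1.47 ± 0.19, adjusted p = 0.00214). Both genes kept their calls in every alternative in which they were tested.

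The other genes that RA raised in WT were not called between the genotypes with RA. Dtx4, a Deltex ubiquitin ligase, was at 28.4 and 20.7 FPKM in WT+RA and at 20.6 and 12.5 in RARα-KO+RA (-0.56, adjusted p = 0.575). Hic1, a transcriptional repressor, was at 27.0 and 26.2 FPKM in WT+RA and at 10.2 and 28.3 in RARα-KO+RA (-0.61, adjusted p = 0.588). The RARα-KO+RA libraries of Hic1 lay on either side of WT+RA, and the gene was called lower without RARα-KO+RA replicate 2 (-1.30, adjusted p = 0.0198). Lztfl1, a ciliary and trafficking protein, gave -0.45 (adjusted p = 0.497). H2-DMa, which helps load peptides on MHC class II, gave 0.22 (adjusted p = 0.662), and Wars, the tryptophanyl-tRNA synthetase, gave 0.07 (adjusted p = 0.898). All of these were higher with RA than without it in RARα-KO as well, by 2.33 for Dtx4, 2.38 for Hic1, 1.19 for Lztfl1, 0.79 for H2-DMa and 0.77 for Wars on the log2 scale. None was called without the block, and Dtx4 and Lztfl1 were called with it (adjusted p = 0.0021 and 0.0324).

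BATF-KO cultures keep the receptor and are on neither side of these comparisons, although they enter the filter and the shared estimate of spread. Their levels give a view of RA that does not rest on the WT+RA libraries. There Sh3gl3 went from 1.11 and 0.75 FPKM without RA to 9.58 and 9.18 FPKM with it. Fbln2 went from 1.43 and 1.23 to 16.3 and 15.4 FPKM, and Dhrs3 from 0.58 and 0.65 to 38.2 and 39.0 FPKM. Lcn10 went from 0.34 and 0.20 to 3.55 and 2.92 FPKM. The 4 genes were thus higher with RA in every library that kept RARα than in any RARα-KO+RA library.

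The study names 5 RARE genes, and 1 of the 5 was called, lower, in RARα-KO+RA (background 0.523% for lower calls). Nt5e (ENSMUSG00000032420, chromosome 9, 88327609 to 88372089) encodes CD73, the ectoenzyme that makes adenosine. It was at 41.5 and 47.8 FPKM in WT+RA and at 12.2 and 8.14 in RARα-KO+RA. All RARα-KO libraries lay below all WT libraries within each setting (18.6 and 18.1 against 5.94 and 2.59 FPKM without RA). Nt5e was 4.38-fold lower with RA (-2.05 ± 0.28, adjusted p = 0.00323) and fell by 1.95 without it (adjusted p = 0.00457), a difference of -0.10 ± 0.40. It lies in a stretch of chromosome 9 where 14.4% of the genes tested were called (15 of 104, Nt5e among them), against 2.88% of all positioned genes. That stretch was bounded by called genes after their values were seen, so its share was raised by the choice. The Nt5e values with RA were higher by 1.24 in WT (adjusted p = 0.316) and by 1.14 in RARα-KO. Neither was called without the block, and the rise in RARα-KO was not called with it either.

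The other RARE genes were not called with RA. Ccr9, the gut-homing chemokine receptor, was at 94.5 and 91.5 FPKM in WT+RA and at 78.3 and 55.0 in RARα-KO+RA (-0.50, adjusted p = 0.724). Art2b, an ADP-ribosyltransferase of the T cell surface, was at 172 and 195 FPKM in WT+RA and at 112 and 78.6 in RARα-KO+RA (-0.96, adjusted p = 0.125). P2rx7, the ATP-gated channel that ARTs modify, had a higher mean in RARα-KO+RA, with 5.33 and 4.94 FPKM in WT+RA and 15.0 and 6.18 in RARα-KO+RA (0.81, adjusted p = 0.506). Without RA P2rx7 was called higher in RARα-KO (0.07 and 0.26 against 5.38 and 1.89 FPKM, 1.89, adjusted p = 0.0416). By limma with genotype and replicate as a block, P2rx7 was called higher with RA in WT (2.40, adjusted p = 0.00167). The same block called it higher with RA in RARα-KO (1.32, adjusted p = 0.0324), and neither was called without the block. Itga4, integrin α4, gave -0.21 (adjusted p = 0.888). In the wider retinoid response list, 14 of 20 genes were measured, 5 were higher, 9 were lower, and Nt5e and Dhrs3 were the called members. The list had a median of -0.20 with RA and 0.20 without it.

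**Figure D2:**
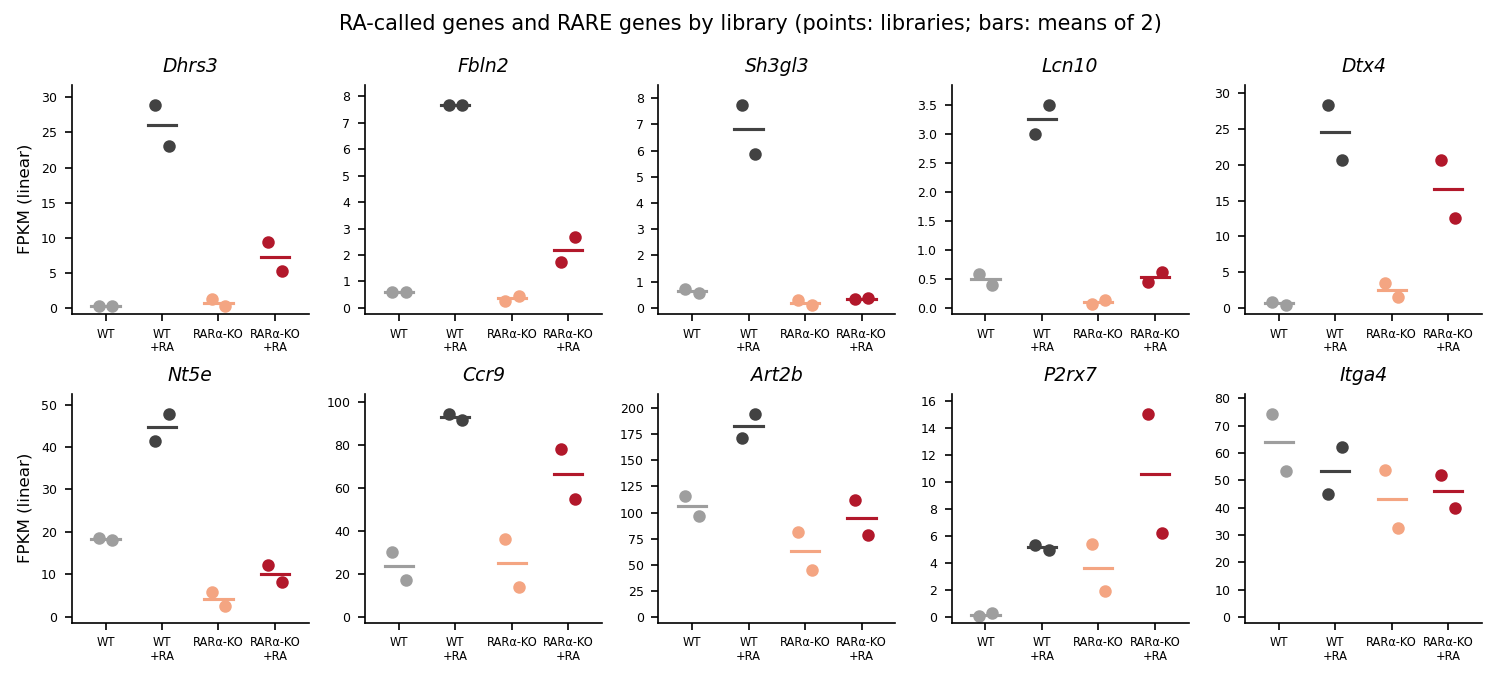
FPKM of genes raised by RA in WT and of RARE genes in each library of 4 groups (points, 2 per group; bars, means), on linear axes from 0. Sh3gl3, Fbln2, Lcn10 and Dhrs3 are high in WT+RA and lower in both RARα-KO+RA libraries, Nt5e is lower in RARα-KO with and without RA, and Dtx4 is higher with RA in both genotypes.

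Some of the genes called only with RA had lower values in WT+RA than in WT, RARα-KO and RARα-KO+RA. They were chosen after their values were seen. Sema4a, a semaphorin, was at 9.87 and 9.73 FPKM in WT+RA and at 19.1 and 28.2 in RARα-KO+RA (1.17 ± 0.20, adjusted p = 0.011). Without RA it was at 20.5 and 18.6 in WT and at 19.6 and 22.9 in RARα-KO. In BATF-KO it went from 20.8 and 18.1 FPKM without RA to 11.5 and 8.32 FPKM with it, so the libraries with RA and an intact receptor were the low ones. App, the amyloid precursor protein, had the same order, with 1.71 and 1.69 FPKM in WT+RA and 3.88 and 5.68 in RARα-KO+RA (1.08, adjusted p = 0.0371). It was at 3.31 and 2.15 in BATF-KO and at 1.61 and 0.89 in BATF-KO+RA. Mkrn2, a makorin ring finger protein, was at 11.0 and 12.4 FPKM in WT+RA and 18.3 and 18.3 in RARα-KO+RA (0.61, adjusted p = 0.0254), and in BATF-KO it overlapped between 15.7 and 17.7 without RA and 16.9 and 14.9 with RA. The calls were not firm. That of Sema4a was lost without WT+RA replicate 1 or 2 or RARα-KO+RA replicate 2 (adjusted p = 0.0739, 0.0744 and 0.0827). That of App was lost without the same libraries (adjusted p = 0.177, 0.153 and 0.259), and also without WT replicate 1 or 2 (0.0538 and 0.0537). That of Mkrn2 was lost without any of the 4 libraries compared (highest adjusted p = 0.184). The difference of the effects was 1.05 for Sema4a, 1.21 for App and 0.74 for Mkrn2, each with an adjusted p of 0.9999.

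Effector genes were the study's main interest, and the data with RA showed higher means with few calls. The study lists genes raised by loss of RARα, and each of the 11 measured here had a higher mean in RARα-KO+RA. Their median was 0.71 and none was called. Since this list was chosen on the same samples, its direction is no independent evidence. Tbx21, the T-bet factor of type 1 effector cells, was at 17.0 and 27.0 FPKM in WT+RA and at 26.2 and 62.8 in RARα-KO+RA (0.89 ± 0.55, adjusted p = 0.615). Ifng, which encodes interferon gamma, had 60.0 and 34.2 FPKM in WT+RA against 64.8 and 136 in RARα-KO+RA (1.03 ± 0.71, adjusted p = 0.667). Tbx21 overlapped between the groups, and Ifng was higher in both RARα-KO+RA libraries by a margin smaller than the gap between replicates. Jun, a subunit of AP-1, was at 48.9 and 43.6 FPKM in WT+RA and at 59.8 and 62.7 in RARα-KO+RA (0.40 ± 0.11, adjusted p = 0.0927). Without RA the Jun difference was called (0.72, adjusted p = 0.0055).

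The rest of this list followed the same pattern of higher means with wide spread. Irf8, a partner of BATF, gave 0.49 (adjusted p = 0.665), and Zbtb32, a repressor induced in activated lymphocytes, gave 0.46 (adjusted p = 0.827). The receptor chains Il12rb1 and Il12rb2, through which IL-12 acts, gave 0.69 and 0.71 (adjusted p = 0.618 and 0.623). Lif, a cytokine, gave 1.18 (adjusted p = 0.58), the chemokine Ccl3 0.58 (adjusted p = 0.793), the nuclear receptor Nr4a3 0.93 (adjusted p = 0.605) and the interferon-induced Ifit1 0.87 (adjusted p = 0.307). RARα-KO+RA replicate 2 held the higher value of its group in all of these, with 30.9 against 8.11 FPKM for Lif and 364 against 140 FPKM for Ccl3.

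Of the 8 measured transcription factors that the study names as raised, all had higher means (median 0.58) and none was called. The study named these factors on the same samples too, and Tbx21 and Jun are in both lists, so their direction is no independent evidence. Besides Tbx21 and Jun, they gave 1.11 for Fos (adjusted p = 0.128), 0.54 for Junb (adjusted p = 0.173), 0.80 for Egr2 (adjusted p = 0.494), 0.63 for Egr1 (adjusted p = 0.606), 0.46 for Irf4 (adjusted p = 0.73) and 0.30 for Batf (adjusted p = 0.747). Batf reversed to -0.01 without RARα-KO+RA replicate 2. The ninth factor, Prdm1, which encodes Blimp-1, stayed below the filter at 0.34 and 0.24 FPKM in WT+RA and 1.14 and 0.92 in RARα-KO+RA. Across 18 AP-1 members and BATF partners, 17 were higher and 1 was called, against 3.24% of all genes called higher. This was Maf (0.53 and 0.51 against 2.04 and 2.42 FPKM, 1.08 ± 0.17, adjusted p = 0.00637). Maf encodes the c-MAF factor, and its call was lost without RARα-KO+RA replicate 2 (adjusted p = 0.0686).

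A further list holds the loci given as bound by RARα and BATF. The study reports that RA removed most of the co-binding of these factors. Its binding assay used another RA dose and time than these cultures, in which binding was not measured. Of the 12 genes in the list, 11 were measured, 10 were higher and 1 was called, Gzma (background 3.24% for higher calls). Gzma (ENSMUSG00000023132, chromosome 13, 113093824 to 113100981) encodes granzyme A, a protease of cytotoxic granules. It was at 5.33 and 3.11 FPKM in WT+RA and at 56.7 and 36.3 in RARα-KO+RA, so the groups were far apart. Gzma was 11.0-fold higher by mean FPKM (3.18 ± 0.51, adjusted p = 0.0068), and its call was lost without WT+RA replicate 2 (adjusted p = 0.0681) or RARα-KO+RA replicate 1 (adjusted p = 0.0564). In the same libraries 14 markers of NK and innate-like T cells summed to 54.2 to 66.7 FPKM in WT+RA and 142 to 160.2 in RARα-KO+RA, with none at 0. Their part in the Gzma result was not tested. The other members gave 0.68 for Il18r1 (adjusted p = 0.362), 0.76 for Nr4a1 (adjusted p = 0.558), 0.57 for Ccl5 (adjusted p = 0.823) and -0.05 for Ifngr1 (adjusted p = 0.988).

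Among 13 cytotoxic molecules, Gzma and Fasl, the Fas ligand, were called higher (background 3.24%). Fasl was at 0.69 and 0.36 FPKM in WT+RA and at 2.72 and 1.93 in RARα-KO+RA (1.12 ± 0.22, adjusted p = 0.0206), and its call was lost without any of the 4 libraries (highest adjusted p = 0.149). The part of NK and innate-like T cell RNA in the Fasl value was not tested either. Nkg7, a granule protein, gave 0.23 (adjusted p = 0.489). Gzmk was at 0.37 and 0.03 FPKM in WT+RA and at 7.38 and 0.83 in RARα-KO+RA (1.72 ± 0.86, adjusted p = 0.489), a gap carried by RARα-KO+RA replicate 1. Gzma was thus called and Gzmk was not.

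Tnfrsf9 (ENSMUSG00000028965, chromosome 4, 150920155 to 150946104), or 4-1BB, a costimulatory receptor, had 62.6 and 47.6 FPKM in WT+RA and 161 and 197 in RARα-KO+RA. Every RARα-KO+RA library was thus above every WT+RA library, with a 3.25-fold difference in means (1.69 ± 0.25, adjusted p = 0.00472). The adjusted p was 0.052 without WT+RA replicate 2 and 0.051 without RARα-KO+RA replicate 2. Tnfsf11, the cytokine RANKL, was the other called gene of 14 in the costimulatory list and was lower, at 20.8 and 13.8 against 5.04 and 8.31 FPKM (-1.26 ± 0.26, adjusted p = 0.0253). Its call was lost without WT+RA replicate 1 (adjusted p = 0.203) or RARα-KO+RA replicate 1 (adjusted p = 0.161). The median of this list was -0.11 and turned to 0.02 and 0.04 without WT+RA replicate 1 and 2.

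Of 15 inhibitory receptors and exhaustion-linked factors, 3 were called higher (background 3.24%). Entpd1, the ectonucleotidase CD39 that acts before CD73 in the making of adenosine, was at 0.66 and 0.70 FPKM in WT+RA and at 3.54 and 4.77 in RARα-KO+RA (1.61 ± 0.26, adjusted p = 0.00696). CD39 is also carried by B cells and myeloid cells, whose markers were higher in the same libraries. They summed to 1138 to 1383 FPKM against 330 to 527 in WT+RA for B cells and to 282 to 353 FPKM against 152 to 215 for myeloid cells. Their part in the Entpd1 value was not tested. Bhlhe40, a repressor of the basic helix-loop-helix family, was at 4.14 and 6.44 against 17.3 and 13.0 FPKM (1.37 ± 0.28, adjusted p = 0.0273). Btla, an inhibitory receptor also carried by B cells, was at 16.7 and 17.5 against 31.5 and 31.3 FPKM (0.84 ± 0.17, adjusted p = 0.0247). The call of Entpd1 was lost without WT+RA replicate 1 or 2 or RARα-KO+RA replicate 2 (highest adjusted p = 0.0721), and those of Bhlhe40 and Btla without any of the 4 libraries (highest adjusted p = 0.215 and 0.156). Pdcd1, Ctla4, Lag3 and Havcr2, the classical inhibitory receptors, were named after their values were seen. They were not called and gave 0.25, -0.35, -0.13 and 0.29.

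**Figure D3:**
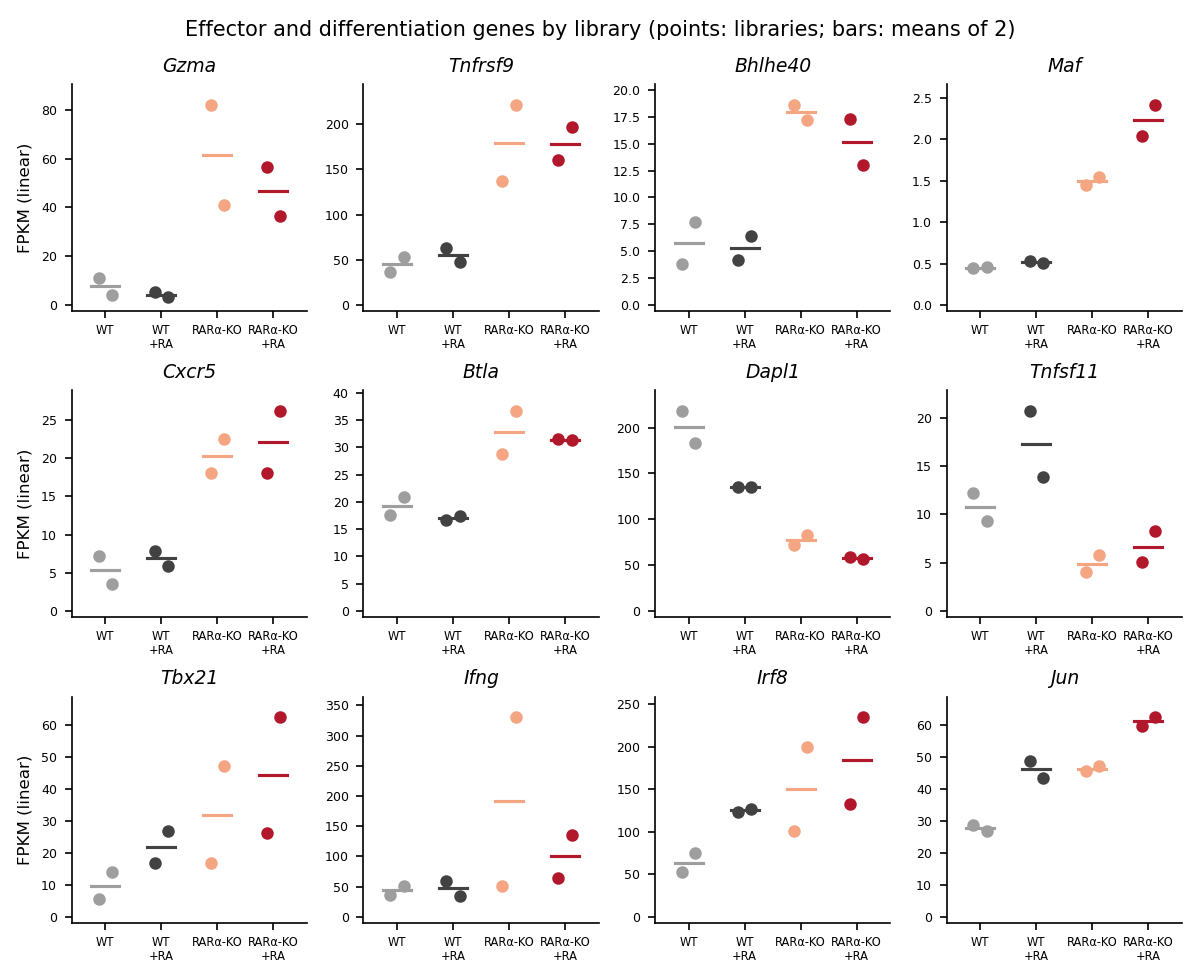
FPKM of effector and differentiation genes in each library of 4 groups (points, 2 per group; bars, means), on linear axes from 0. Gzma, Tnfrsf9, Bhlhe40 and Maf are higher and Dapl1 lower in both RARα-KO+RA libraries, while Tbx21 and Ifng spread widely within RARα-KO+RA (26.2 to 62.8 and 64.8 to 136 FPKM).

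The effector lineage factors called were Bhlhe40, Ikzf3 and Zeb2, of 17 measured (background 3.24%). Ikzf3, which encodes the lymphoid factor Aiolos, was at 74.2 and 103 FPKM in WT+RA and at 183 and 162 in RARα-KO+RA (0.97 ± 0.21, adjusted p = 0.0313). Zeb2, a factor of terminal effector cells, was at 1.54 and 1.90 against 4.14 and 5.91 FPKM (1.13 ± 0.26, adjusted p = 0.0424). The groups did not overlap for either gene, but the Zeb2 call was lost without any of the 4 libraries (highest adjusted p = 0.281) and without RARα-KO replicate 1 or 2 (0.0515 and 0.0519). The Ikzf3 call was lost without WT+RA replicate 1 (0.24), RARα-KO+RA replicate 1 (0.174) or RARα-KO+RA replicate 2 (0.106). Myeloid markers summed to 152 to 215 FPKM in WT+RA and 282 to 353 in RARα-KO+RA, and NK and innate-like T cell markers were higher as well. Their part in the Zeb2 and Bhlhe40 values was not tested. Runx3, a factor of the CD8 lineage, gave 0.38 (adjusted p = 0.299).

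Cytokines and chemokines gave few calls. Csf1, the macrophage growth factor, was at 0.85 and 0.98 FPKM in WT+RA and at 2.36 and 4.14 in RARα-KO+RA (1.12 ± 0.22, adjusted p = 0.0191), the 1 called of 13 cytokines. Cxcl16 (0.62 and 0.30 against 2.82 and 2.38 FPKM, adjusted p = 0.00967) and Cxcl2 (0.21 and 0.00 against 3.61 and 1.61 FPKM, adjusted p = 0.0133) were the 2 called of 11 chemokines, and myeloid cells are a known source of both. Without single libraries of the comparison these calls were lost, with adjusted p of up to 0.139 for Csf1 (without both WT+RA replicates and RARα-KO+RA replicate 2 in turn), 0.0808 for Cxcl16 (without WT+RA replicate 2 and either RARα-KO+RA replicate) and 0.102 for Cxcl2 (without either WT+RA replicate and RARα-KO+RA replicate 1). The myeloid markers summed to 152 to 215 FPKM in WT+RA and 282 to 353 in RARα-KO+RA, and their part in these values was not tested.

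Factors and receptors that sense T cell signals had slightly higher means and no calls. Of 16 factors induced or moved by T cell receptor signals, 15 were higher, with a median of 0.35. Nfatc1, a calcium-regulated factor, was at 28.5 and 37.3 FPKM in WT+RA and at 39.7 and 49.7 in RARα-KO+RA (0.43, adjusted p = 0.329), and Rel, an NF-κB subunit, was at 13.4 and 13.8 against 17.7 and 18.9 FPKM (0.40, adjusted p = 0.495). The groups did not overlap for either gene, but with 2 libraries per group this can arise without a real difference. Of 22 cytokine receptors and their SOCS inhibitors, 17 were higher, with a median of 0.25. Il18rap, a chain of the IL-18 receptor, was at 2.23 and 1.81 against 7.14 and 3.86 FPKM (1.06 ± 0.35, adjusted p = 0.19).

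Genes of naive and stem-like T cells showed a single call among 20. Dapl1 (ENSMUSG00000026989, chromosome 2, 59484653 to 59505020), a marker of naive and early memory CD8 T cells, was at 136 and 135 FPKM in WT+RA and at 59.2 and 57.0 in RARα-KO+RA. The replicates of each group were close and the groups were 2.32-fold apart (-1.21 ± 0.13, adjusted p = 0.00108). Dapl1 kept its call in every alternative run and was called lower without RA too (-1.36, adjusted p = 0.000514). Lef1, a Wnt-pathway factor, gave -0.35 (adjusted p = 0.527), and Ccr7, the lymph node homing receptor, gave -0.34 (adjusted p = 0.428). Tcf7, which encodes TCF1, gave 0.05, was not called and was named after its values were seen. Of homing receptors, Cxcr5, which guides cells to B cell follicles, was higher at 7.91 and 5.88 against 18.0 and 26.2 FPKM (1.54 ± 0.28, adjusted p = 0.0125), and its call was lost without WT+RA replicate 2 (0.105) or RARα-KO+RA replicate 2 (0.113). Gcnt1, an enzyme that builds selectin ligands, was higher at 0.58 and 0.58 against 4.79 and 3.42 FPKM (1.68 ± 0.21, adjusted p = 0.00198).

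All 25 measured type I interferon response genes were higher in RARα-KO+RA, with a median of 1.04, and 2 were called (background 3.24%). In the same libraries the B cell markers summed to 1138 to 1383 FPKM against 330 to 527, and the myeloid markers to 282 to 353 against 152 to 215, and their part in this list was not tested. Stat2, a transducer of interferon signals, was at 56.8 and 62.0 FPKM in WT+RA and at 101 and 164 in RARα-KO+RA (1.10 ± 0.24, adjusted p = 0.0324). Oas1a, an antiviral enzyme that makes oligoadenylates, was at 4.16 and 3.33 against 9.89 and 19.9 FPKM (1.67 ± 0.33, adjusted p = 0.0193). Both calls were lost without either WT+RA replicate or RARα-KO+RA replicate 2 (highest adjusted p = 0.201 and 0.131). RARα-KO+RA replicate 2 was the higher of the 2 in these genes, as it was for Ifit3b (11.99 and 22.3 FPKM) and Rsad2 (3.32 and 7.63 FPKM), which were not called (adjusted p = 0.0566 and 0.064) but were without RARα-KO+RA replicate 1 (adjusted p = 0.028 and 0.0359). Without RA the same list had a median of 0.89 and 1 called gene.

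Cell division and metabolism gave almost no calls. None of 28 cell cycle genes was called, with 24 lower and a median of -0.19, and none of 20 genes of glycolysis, 20 of cholesterol synthesis, 13 of the integrated stress response, 17 of ribosome biogenesis or 11 of heat shock. Of 17 nuclear genes of oxidative phosphorylation, 16 were lower and Cox7a2, a subunit of cytochrome c oxidase, was called (144 and 148 against 56.2 and 56.9 FPKM, -1.35 ± 0.15, adjusted p = 0.00118). In the apoptosis list Bcl2a1a, an antiapoptotic BCL2 relative, was called higher of 18 (0.82 and 1.05 against 9.09 and 7.39 FPKM, 2.25 ± 0.27, adjusted p = 0.00179). Its near-identical copy Bcl2a1d gave 0.61 (adjusted p = 0.157), and reads shared between the copies make the split uncertain. MHC class I genes were not called either (0 of 15, with 14 higher and a median of 0.19).

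**Figure D4:**
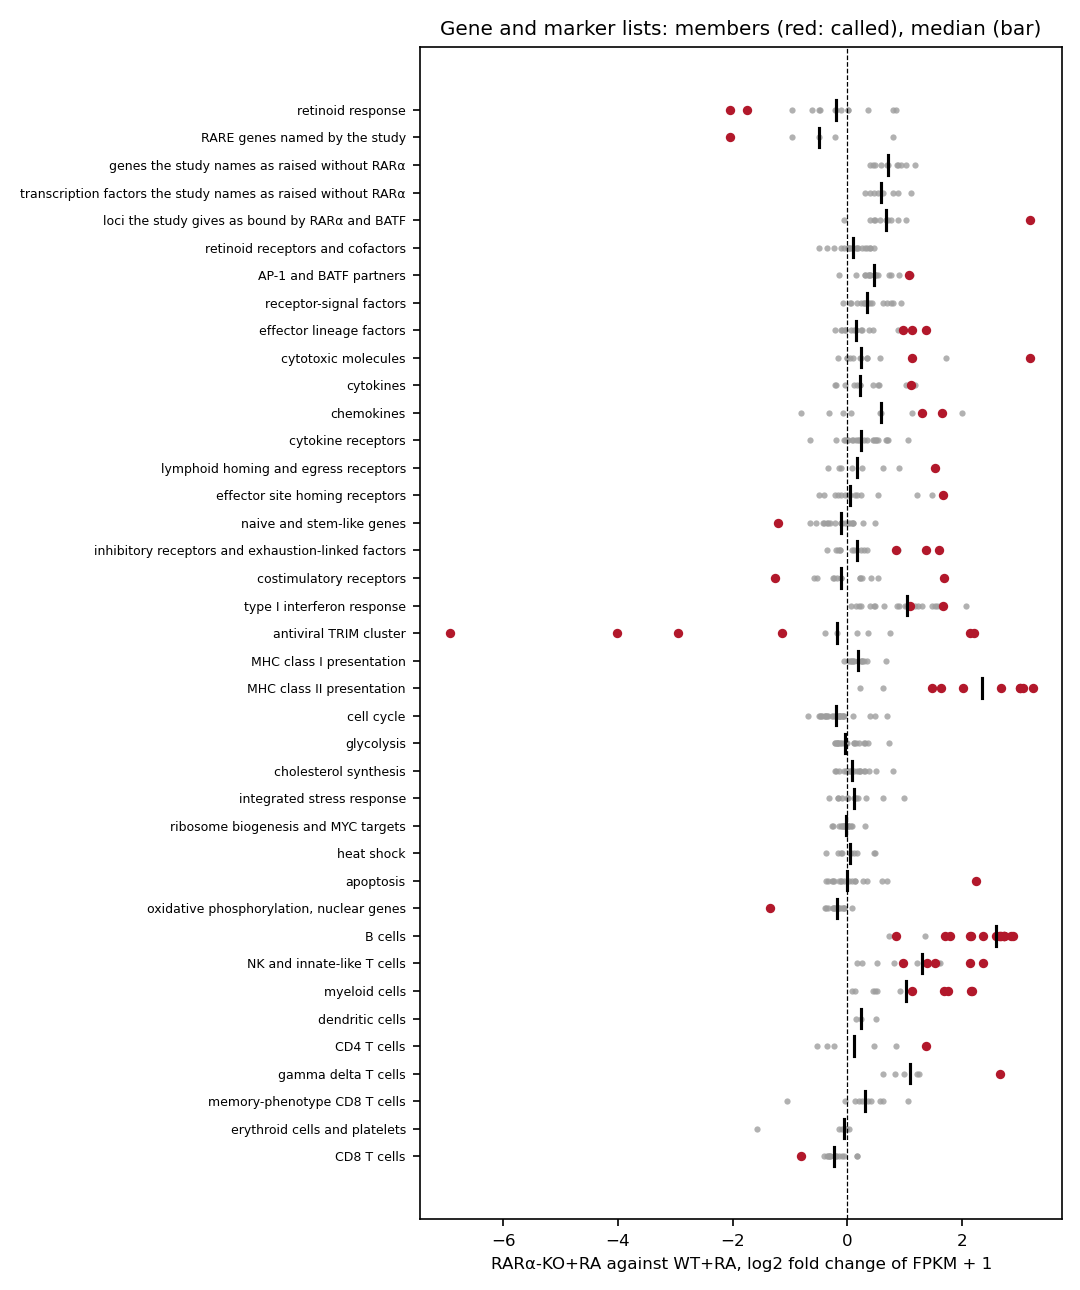
Log2 fold change of FPKM + 1 between RARα-KO+RA and WT+RA for each measured member of the gene and marker lists (grey, not called; red, called; vertical bars, list medians), with a dashed line at the median of all genes tested (-0.01). MHC class II genes (median 2.35) and B cell markers (median 2.60) lie furthest to the right, and the TRIM cluster spreads from -6.94 to 2.22.

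Genes of other cell types were among the largest differences. Of 17 B cell markers, 15 were called and all were higher in RARα-KO+RA, with a median of 2.60. Cd79a, part of the B cell receptor complex, was at 26.5 and 10.6 FPKM in WT+RA and at 125 and 137 in RARα-KO+RA. Cd22, an inhibitory receptor of B cells, was at 10.1 and 6.45 against 49.5 and 84.6 FPKM. The 17 markers summed to 330 to 527 FPKM in WT+RA and to 1138 to 1383 in RARα-KO+RA, and none was at 0 in any of these libraries. The Cd79a call was lost without WT+RA replicate 2 (adjusted p = 0.0518) or RARα-KO+RA replicate 2 (adjusted p = 0.057). In bulk samples more cells of a type and more RNA per cell cannot be told apart.

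MHC class II presentation genes were also higher, with 8 of 10 genes called, all higher, and a median of 2.35. H2-Eb1, H2-Ab1 and H2-Aa, the chains that present peptides to CD4 T cells, gave 3.24, 3.07 and 3.01. H2-Ab1 was at 68.9 and 28.1 FPKM in WT+RA and at 354 and 406 in RARα-KO+RA. Cd74, the invariant chain, was at 134 and 61.2 against 637 and 860 FPKM (3.01 ± 0.42, adjusted p = 0.00338). Ciita, the coactivator that switches class II genes on, was at 2.11 and 1.21 against 13.8 and 18.4 FPKM (2.69 ± 0.25, adjusted p = 0.000441). Other called genes with large changes were Jchain of antibody polymers (1.13 and 0.47 against 15.2 and 12.2 FPKM), the lysosomal protease Ctsh (6.18 and 2.65 against 36.7 and 46.0 FPKM) and the B cell signalling factor Rasgrp3 (1.12 and 0.36 against 11.7 and 12.9 FPKM). The part of B cell RNA in these values, and in Cxcr5, Btla and Ikzf3, was not tested.

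Markers of NK and innate-like T cells were higher for all 12 measured genes, with 5 called and a median of 1.31. Ncr1, the NK receptor NKp46, was at 0.42 and 0.49 FPKM in WT+RA and at 6.50 and 4.46 in RARα-KO+RA (2.14 ± 0.21, adjusted p = 0.000524). All 12 myeloid markers were higher, with 5 called and a median of 1.02, among them Adgre1, which encodes F4/80 (0.45 and 0.22 against 4.13 and 5.82 FPKM). The Adgre1 call was lost without WT+RA replicate 2 (adjusted p = 0.0719) or RARα-KO+RA replicate 2 (adjusted p = 0.0798). All 6 gamma delta T cell markers were higher as well, and 1 was called, the kinase gene Blk (2.66, adjusted p = 0.00213), which also counts among the B cell markers. Trdc, the δ chain constant region, was at 1.39 and 1.39 against 7.06 and 3.01 FPKM (1.25, adjusted p = 0.128). No gene was called among 3 measured dendritic cell markers (median 0.23), 10 memory-phenotype CD8 T cell markers (median 0.31) or 6 erythroid and platelet markers (median -0.05). Erythroid markers summed to 185 and 19.3 FPKM in replicates 1 and 2 of WT+RA and to 149 and 18.9 FPKM in those of RARα-KO+RA, so they split the replicates and not the genotypes. Zbtb7b, the ThPOK factor of the CD4 lineage, was higher (1.96 and 1.82 against 6.55 and 6.37 FPKM, 1.37 ± 0.16, adjusted p = 0.00139), while Cd4 itself gave -0.53 (adjusted p = 0.327).

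The label of CD8 T cells was checked on its markers. Cd8a, the CD8 α chain, was at 260.1 and 292 FPKM in WT+RA and at 244 and 234 in RARα-KO+RA. Of 15 CD8 T cell markers, 13 were lower in RARα-KO+RA, with a median of -0.23, and 1 was called, Trbc1, a constant region of the T cell receptor β chain (601 and 451 against 322 and 272 FPKM, -0.81 ± 0.18, adjusted p = 0.0403). The Trbc1 call was lost without WT+RA replicate 1 (0.301) or either RARα-KO+RA replicate (0.0828 and 0.262).

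**Figure D5:**
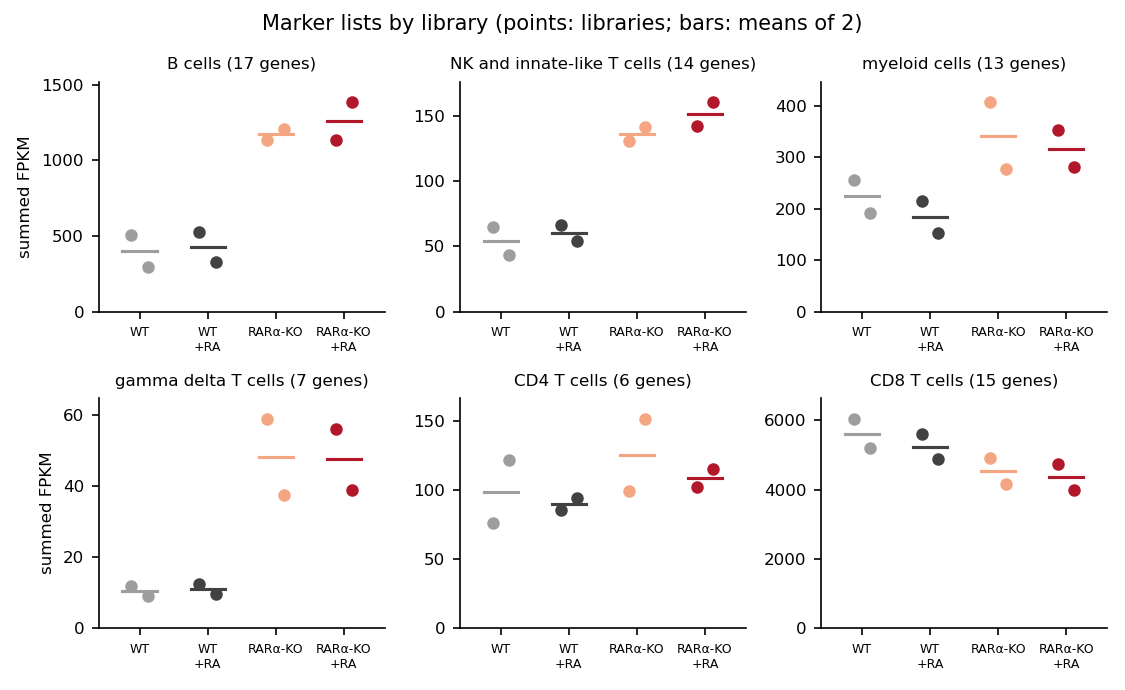
Summed FPKM of marker lists in each library of 4 groups (points, 2 per group; bars, means), on linear axes from 0. B cell, NK, myeloid and gamma delta T cell markers are higher in both RARα-KO+RA libraries than in both WT+RA libraries (B cells 330 to 527 against 1138 to 1383), and CD8 T cell markers sum to 4884 to 5591 in WT+RA and 3998 to 4728 in RARα-KO+RA.

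Antigen receptor segments split by lineage. Of 179 immunoglobulin segments, 178 were higher in RARα-KO+RA and 114 were called. Of 103 Trav segments of the T cell receptor α chain, 40 were higher and none was called, while 24 Trbv segments of the β chain gave 3 higher and 8 lower calls. Trbv24 was at 4.37 and 5.66 FPKM in WT+RA and at 87.7 and 58.3 in RARα-KO+RA (3.60 ± 0.29, adjusted p = 0.000157). Trbv16 was at 60.9 and 62.1 against 15.1 and 6.75 FPKM (-2.48 ± 0.32, adjusted p = 0.0025), and Trbv12-2, Trbv14 and Trbv15 gave -2.45, -2.21 and -2.12. The Trbv14 call was lost without WT+RA replicate 1 (0.0807) or RARα-KO+RA replicate 2 (0.0676). The largest increases among immunoglobulin segments were Igkv15-103 (3.92), Ighv1-53 (3.67) and Igkv6-25 (3.64). The Igkv6-25 call was lost without WT+RA replicate 2 (0.0755) or either RARα-KO+RA replicate (0.0867 and 0.0975).

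The largest difference outside gene models and pseudogenes was that of Trim12a. Trim12a (ENSMUSG00000066258, chromosome 7, 104299893 to 104315558), an antiviral protein of the TRIM5 family, was at 139 and 110 FPKM in WT+RA and at 0.00 and 0.03 in RARα-KO+RA (-6.94 ± 0.20, adjusted p = 2.4e-07), where the pseudocount bounds the fold. Trim5 was at 16.2 and 14.8 against 0.01 and 0.02 FPKM (-4.02), and Trim30d at 7.58 and 8.41 against 0.07 and 0.27 FPKM (-2.95). Neighbouring members were higher, with Trim30c at 1.23 and 1.63 against 11.0 and 9.61 FPKM (2.22) and Trim34b at 1.57 and 1.35 against 8.83 and 11.1 FPKM (2.15). Of 11 members measured in the cluster, 2 were called higher and 4 lower, the other being Trim34a (-1.14), which, like Trim34b, was named after its values were seen. The values without RA were -6.86 for Trim12a, -4.10 for Trim5 and 2.21 for Trim30c. These genes are close relatives, so reads shared among them make the level of each uncertain.

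Rpl29, a ribosomal protein of the large subunit (ENSMUSG00000048758, chromosome 9, 106428889 to 106431568), was at 1116 and 1191 FPKM in WT+RA and at 31.1 and 38.6 in RARα-KO+RA (-5.02 ± 0.19, adjusted p = 1.2e-06). It has many processed copies, and the model Gm8210 was listed at 0 in both WT+RA libraries and at 257 and 286 FPKM in RARα-KO+RA. Rps7, a protein of the small subunit, was at 2082 and 1728 against 961 and 925 FPKM (-1.01), while its pseudogene Rps7-ps3 was at 32.9 and 31.5 against 1231 and 1079 FPKM (5.12). The sum of Rps7 and Rps7-ps3 was 2115 and 1759 FPKM in WT+RA and 2192 and 2004 in RARα-KO+RA, and the sums of the groups overlapped. The Rps7 call was lost without WT+RA replicate 1 (adjusted p = 0.0527) or RARα-KO+RA replicate 2 (adjusted p = 0.0516), and Rps7 and Rps7-ps3 were named after their values were seen. The mitochondrial gene mt-Nd3, a subunit of complex I, was at 54.3 and 44.8 against 1224 and 921 FPKM (4.40 ± 0.19, adjusted p = 3e-06). Gm28438 went the other way from mt-Nd3, at 1191 and 1251 against 25.5 and 33.7 FPKM. Whether reads were split differently between mt-Nd3 and Gm28438 was not tested, so the level of each is uncertain. Gm6969 was at 0.32 and 0.32 against 439 and 297 FPKM. Hmgb1-ps8 (69.5 and 84.6 against 0.00 and 0.49 FPKM) and Gm26740 (30.7 and 41.8 against 3.41 and 2.72 FPKM) were lower. Gm13841 was higher (4.79 and 4.28 against 323 and 419 FPKM), and Gm44075 and Gm26712 were listed at 0 in both libraries of WT+RA and RARα-KO+RA respectively.

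Other genes with large differences encode proteins of varied roles. Map7, a microtubule-associated protein (chromosome 10, 20148920 to 20281590), was at 9.79 and 11.0 FPKM in WT+RA and at 0.55 and 0.34 in RARα-KO+RA (-2.98 ± 0.17, adjusted p = 1.7e-05). Rab4a, a GTPase of endosome recycling, was at 13.3 and 13.3 against 2.55 and 1.65 FPKM (-2.22). Slfn9, a Schlafen protein, was at 2.03 and 3.09 against 29.4 and 34.8 FPKM (3.23), and its neighbour Slfn8, named after its values were seen, at 30.1 and 28.1 against 8.43 and 11.1 FPKM (-1.50). Slc15a2, a peptide transporter, was at 36.8 and 36.3 against 8.71 and 5.25 FPKM (-2.27, adjusted p = 0.0161), and Abhd14a at 18.9 and 19.8 against 3.67 and 6.23 FPKM (-1.81, adjusted p = 0.00693). Efcab7, a ciliary protein, was at 9.18 and 6.27 against 1.17 and 1.50 FPKM (-1.89, adjusted p = 0.00861) and was the gene of these that was not called without RA (-0.42, adjusted p = 0.854). The Slc15a2 call was lost without either WT+RA replicate or RARα-KO+RA replicate 2 (0.108, 0.0954 and 0.134), that of Abhd14a without WT+RA replicate 2 or RARα-KO+RA replicate 1 (0.0571 and 0.0534), and that of Efcab7 without WT+RA replicate 1 or RARα-KO+RA replicate 1 (0.0836 and 0.062).

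The positions of called genes were counted along the genome. Over 12189 genes with a position and no receptor segment, 300 (2.46%) were called higher and 51 (0.418%) lower. Chromosome 9 held 10 lower calls among 665 genes (1.50%) and chromosome 7 held 13 among 927 (1.40%), while chromosomes 1, 3, 5 and 18 held none. In windows of 10 Mb with at least 20 tested genes, the highest share of called genes was 26.7% (8 of 30), from 20 to 30 Mb of chromosome 10, where Map7 lies. The window from 100 to 110 Mb of chromosome 7, with the TRIM cluster, had 17.1% (14 of 82), and that from 80 to 90 Mb, with Sh3gl3 and Hdgfl3 (-1.47), had 10.0% (5 of 50). On chromosome 9, 15 of 104 genes were called (14.4%, 6 higher and 9 lower) from Cox7a2 to Abhd14b (79755241 to 106452923), a stretch that holds Nt5e, Rpl29 and Abhd14a. On chromosome 7, 20 of 156 genes (12.8%) were called from Aen to Trim30d (78895927 to 104507853), a stretch that holds Sh3gl3. Both stretches were chosen after their values were seen. Within 10 Mb of Rara 7 of 226 genes were called (3.10%), near the share over all positioned genes (2.88%). Mostly outside that range, the window from 80 to 90 Mb of chromosome 11 had 8.91% called (9 of 101, 7 higher and 2 lower). It holds Slfn8 and Slfn9. What sets the positions was not tested.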

How the data were processed

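RNA-seq was performed on 12 cultures of mouse CD8 T cells in 6 groups (WT, BATF-KO and RARα-KO, each with and without RA). Per the labels, libraries were poly-A enriched and read as pairs of 150 bp, although a total RNA kit is also named. The authors trimmed reads, aligned them to GRCm38 with STAR 2.7.8a and estimated gene levels with RSEM 1.3.3 on the ENSEMBL annotation. The deposited values are FPKM written to 2 decimals for 55487 genes and 4 further entries. FPKM is scaled to each library's own fragments, so total depth is unknown and a low value rests on few fragments. Relative depth was read from the smallest step between values. No column was left unmapped.

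Genes with at least 1 FPKM in at least 2 libraries were kept, which left 13396. Means of the 6 groups were fitted to log2(FPKM + 1) in limma 3.58.1 under R 4.3.3. All 12 libraries entered the fit, which used a mean-variance trend, and p-values were Benjamini-Hochberg adjusted within each comparison over all genes tested. The fit had 6 residual degrees of freedom. Values after ± are standard errors. Fold changes on this scale understate the change of low genes. With 2 libraries against 2, an exact permutation test cannot reach 0.05 for 1 gene, so p-values rest on a spread shared over groups. The fit was tested on simulated data. Tables were made with Python 3.11.15, pandas 2.3.3 and numpy 2.4.6, and plots with matplotlib 3.10.9.

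Named genes were Rara, the genes the study names, the 12 called genes that changed most in each direction among those at 5 FPKM or more in the higher group whose libraries did not overlap, 4 per direction among receptor segments and 4 among gene models and pseudogenes, and the 4 members of each list with the smallest p. Other names were chosen after their values were seen. The comparison and all lists were chosen with earlier results of these data known. Gene positions are from the RefSeq annotation of GRCm38.p6. Alternatives covered the pseudocount, the filter, scaling to TPM or by median ratios, the libraries fitted, weights, the trend, blocks, receptor segments and leaving out each WT or RARα-KO library. Promoter sequences were not used here. The value of 1 gene is not reported here.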

Additional observations from a re-analysis of the deposited data

Results flagged for a closer look

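Dtx4, a Deltex ubiquitin ligase gene, was picked out because its RARα-KO libraries lay on opposite sides of WT in the 2 settings. Without RA it was at 3.54 and 1.53 FPKM in RARα-KO and at 0.76 and 0.45 in WT. The values with RA were 20.6 and 12.5 FPKM in RARα-KO+RA and 28.4 and 20.7 in WT+RA, where both RARα-KO+RA libraries were below both WT+RA libraries. The difference of the effects was -1.65 ± 0.46 on the log2 scale, with an unadjusted p of 0.00524 and an adjusted p of 0.9999 by limma, so it did not pass the test.

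Mkrn2, a makorin ring finger gene, was picked out for the same reason in the other direction. It was at 14.6 and 15.6 FPKM in RARα-KO and at 16.4 and 16.8 in WT, and at 18.3 and 18.3 in RARα-KO+RA against 11.0 and 12.4 in WT+RA. The difference of the effects was 0.74 ± 0.18, with an unadjusted p of 0.00209 and an adjusted p of 0.9999 by limma. Both genes were named after their values were seen, and groups of 2 libraries are too small to look for a single outlying library.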

How the results depend on the processing

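The count of genes called with RA (504) stayed within 1.5 times under 11 of the 13 alternatives that kept every library of the comparison. It was 320 with only the 4 compared libraries, where the fit has fewer residual degrees of freedom, and 317 without receptor segments and B cell markers, all of which had been called before. Without RA (441) these alternatives gave 80 and 275. Leaving out each of the 8 WT and RARα-KO libraries in turn (BATF-KO libraries were not left out singly) gave 246 to 499 genes with RA and 247 to 423 without RA. The difference of the effects (0) gave 16 with no filter and 1 with no mean-variance trend, and 0 whichever of these 8 was left out. RA in WT (9) gave 16 at a pseudocount of 0.1, 21 with no filter, 0 with only the compared libraries, 5 without the BATF-KO groups and 4 to 16 with a library left out. RA in RARα-KO (1) gave 12 with no filter, 2 with no trend and 0 at a pseudocount of 0.1, at 5 FPKM or more, with only the compared libraries and without the BATF-KO groups, and 0 to 1 with a library left out. The causes were not tested, other than the fewer libraries or genes.

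Replicate numbers are shared by the groups, but no source says what they mark, and each pair of groups has 2 of them. Cre within RARα-KO and the erythroid markers within WT followed them in both settings, as given above. Deviations of same-numbered libraries correlated at 0.13 for WT+RA and RARα-KO+RA and at 0.43 to 0.58 between the settings of WT and of RARα-KO. Across genotypes without RA the value was 0.45 for WT and RARα-KO. It was 0.40 between the settings of BATF-KO and 0.08 for WT+RA and BATF-KO+RA. With the replicate number as a block 730 genes were called with RA, 661 without RA, 32 for RA in WT and 3 for RA in RARα-KO. With genotype and replicate as a block the counts were 447 and 386 (random block), and 70 and 11 for RA in WT and RARα-KO (fixed block; 48 and 10 higher, 22 and 1 lower). Both blocks gave 0 genes for the difference of the effects where fitted.

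Of the genes named in the text, 77 were called. Of these, 48 kept the call under every alternative in which they were tested (of 21) and 29 lost it under at least 1. With only the 4 compared libraries 19 of the 77 lost it (App, Bhlhe40, Btla, Csf1, Cxcl16, Cxcl2, Dhrs3, Fasl, Igkv6-25, Ikzf3, Maf, Mkrn2, Oas1a, Rps7, Sema4a, Stat2, Tnfsf11, Trbc1 and Zeb2), with no filter 13, without the BATF-KO groups 10 and with the random block 5 (Efcab7, Entpd1, Fasl, Ikzf3 and Mkrn2). Of 53 named genes that were not called, 10 gained a call under some alternative (Art2b, Bcl2a1d, Ccl5, Fos, Hic1, Ifit3b, Il18rap, Jun, Rsad2 and Trdc), among them Art2b, Ccl5, Il18rap, Jun and Trdc with the replicate number as a block. Signs changed only for genes that were not called. With each of the 8 left out in turn, the values ran from -1.30 to 0.088 for Hic1, -0.0069 to 0.61 for Batf, -0.10 to 1.27 for Ccl3, -0.12 to 0.71 for Havcr2, -0.068 to 1.21 for Ccl5, -0.15 to 1.06 for Zbtb32, -0.44 to 0.023 for Itga4, -0.055 to 0.20 for Wars, -0.61 to 0.35 for Lag3, -0.049 to 0.16 for Tcf7, -0.31 to 0.20 for Ifngr1, -0.44 to 0.48 for Rarg and -0.080 to 0.070 for Gm6345. Ifngr1 gave 0.010 after scaling to TPM and Gm6345 gave 0.037 at a pseudocount of 0.1. The promoter motif description and its spacing alternative were not run, since no promoter sequence was used here. Depth limits genes near 1 FPKM, where the pseudocount sets much of the fold change.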
